A study of Mus musculus with 3 samples.

Results

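The genes described here encode cell adhesion molecules and their close cytoplasmic partners. They were taken as every probe set annotated to 1 gene whose mouse symbol belongs to the cadherins, protocadherins, catenins, integrin subunits, NCAM, neurexin, neuroligin, contactin, Cntnap or ICAM groups, or is L1cam, Chl1, Nrcam, Nfasc, Alcam, Vcam1, Pecam1, Thy1 or Mcam. This gave 88 of 12488 probe sets, for 59 of 8251 named genes. No single-gene probe set was found for a neurexin, a neuroligin or Nfasc. Symbol prefixes also brought in a few genes that are not adhesion receptors, among them Ctnnbip1, Ctnnal1 and Itgb1bp1. These stay in the catenin and integrin beta counts below. Total RNA of the hippocampal field CA1 was hybridised to 3 replicate arrays of 1 group. The animals were young male mice of the inbred strain C57BL/6J. The mice had been trained by contextual fear conditioning: 2 min in a new context and a foot shock of 1 s at 0.5 mA, given 3 times. They were put back in the home cage 1 min after the final shock, and RNA was taken 6 h after it. Unconditioned animals were not analysed here, and no effect of training was estimated. Whether each array came from a single mouse or from pooled tissue is not given in the labels, and the replicate spread may be technical in part.

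Classical cadherins bind each other across the junction between cells, and their cytoplasmic tails recruit catenins, which link them to actin. Integrins are pairs of an alpha and a beta subunit that bind the extracellular matrix or, on leukocytes, immunoglobulin adhesion molecules. Immunoglobulin-type molecules such as NCAM, L1 and the contactins act in axon growth, myelinated axon domains and synapse formation. In the hippocampus, members of all of these groups are known at synapses and on growing or mature axons.

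The 3 arrays had median signals between 171 and 177, and 6 to 18 probe sets carried identical values in a pair of arrays, so no array repeated another. Of the CA1 markers, Wfs1 gave 2522 ± 66.0 and Dcn 2839.6 ± 584, and all 5 markers of this list with a probe set passed the threshold on every array. So did all 8 astrocyte markers with a probe set. No other region or tissue was compared, so the labelled tissue was not tested. Values are deposited signal intensities on a linear scale, as mean ± SD over the 3 arrays or as arrays 1, 2 and 3 in that order. A probe set is called measured when its mean was above 175, the median of all values, which stands in for a detection call. A gene with several probe sets is represented by the one of highest mean unless stated. Signals of different probe sets also depend on their probe sequences, so they are not read as a ranking of transcript amounts. In bulk tissue, fewer cells of a type and less RNA per cell cannot be told apart. Gapdh, read by control probe sets at both transcript ends, had a 3' to 5' ratio of 1.21 on array 2, against 3.99 and 3.94 on arrays 1 and 3. For Actb the ratio was 2.57, 1.86 and 3.50.

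Adhesion genes were measured about as often as other genes on the array. Of the 88 member probe sets 42 were measured, or 47.7%, beside 50.1% of the 12422 probe sets that are not array controls. On all 3 arrays 34 passed the threshold, or 38.6%, beside 43.9%. On no array did 40 pass, or 45.5%, beside 43.6%. By gene, 32 of 59 were measured, beside 59.1% of all named genes. Of the 59, 29 passed on every array and 23 on none. The matching shares over all named genes were not computed. The remaining 7, with 1 or 2 arrays above, were Pecam1, L1cam, Ncam2, Cdh10, Cdh8, Cntnap1 and Itgax. Of the catenin genes 6 of 7 were measured and of the cadherin genes 8 of 13, against 4 of 12 integrin alpha genes and 0 of 2 protocadherin genes. The probe sets nearest to the threshold were one of Ctnnd1 at 147, 228 and 157 and that of Itgax at 187 ± 88.4 above it, and one of Ctnna2 at 162, 202 and 150.3 and that of Cntnap1 at 166 ± 132 below it.

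**Figure D1:**
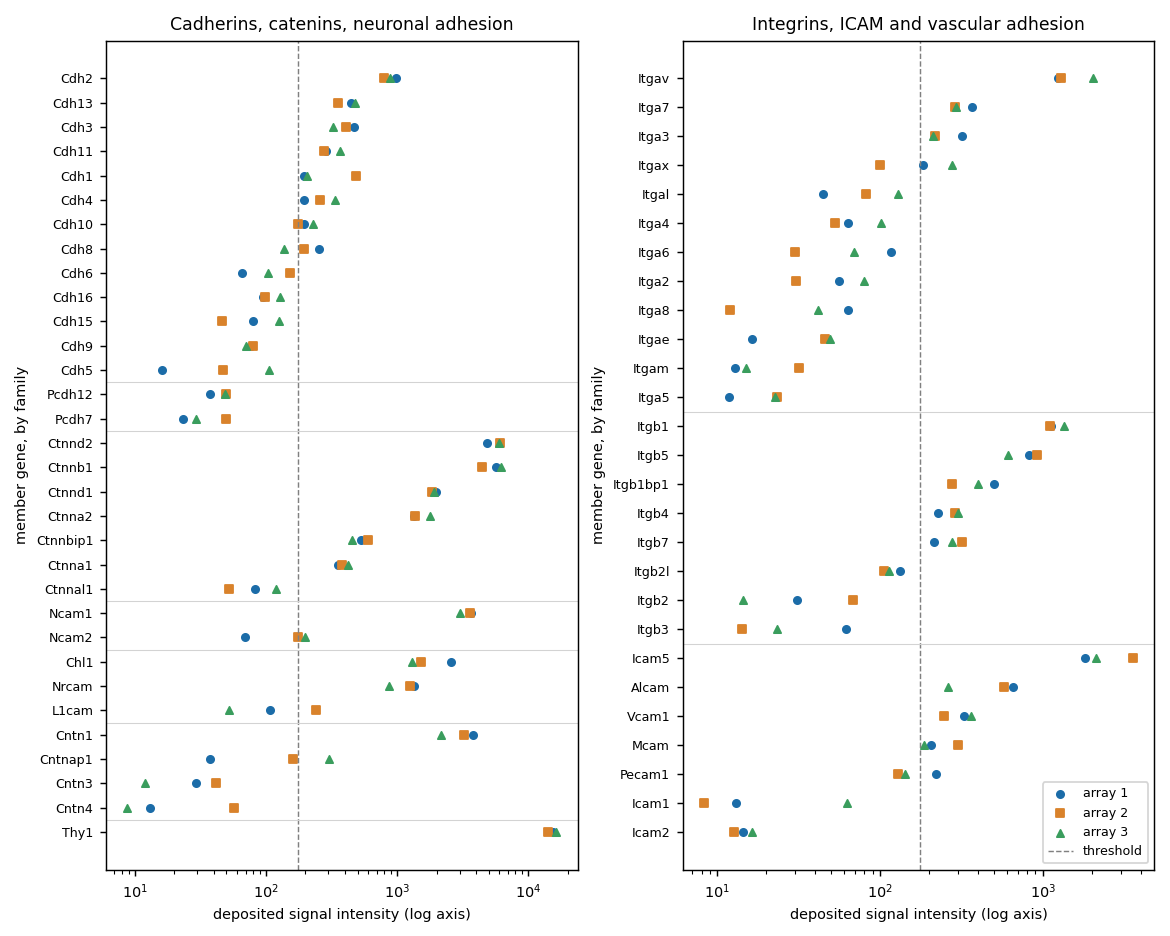
Deposited signal intensity (log axis) on each of the 3 arrays for the 59 member genes, each at its probe set of highest mean, grouped by family and separated by grey lines. The dashed line is the threshold of 175, which 29 genes passed on every array and 23 on none.

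Start-site sequence was the one feature outside the rule that could be set beside the signals. RefSeq windows of 300 bases, 250 before and 50 after a gene's start, were available for 36 of the 59 genes on build GRCm38.p6. The ratio of observed to expected CpG dinucleotides, averaged over a gene's windows, had a median of 0.70 in the 20 measured members and 0.47 in the 16 under the threshold. Over all named genes of the array with a window the medians were 0.77 in 3940 measured genes and 0.54 in 2636 under the threshold, so the members showed the same direction as the array at large. Both member groups ranged widely, from 0.19 for Cdh10 to 1.15 for Ctnnb1 among measured genes, and from 0 for Cntn3 to 0.96 for Ncam2 among the others. A motif was counted for a gene when any of its windows held it. TATAAA, searched on both strands, occurred in 3 of the 20 measured members (Cntn1, Ctnnd1 and Ctnnb1) and 1 of the 16 others (Icam1). The first 3 of these genes had 3, 2 and 2 windows, and Icam1 had 1. Among all named genes the motif occurred in 9.24% of those measured and 16.7% of those under the threshold. These shares lie in the opposite order to those of the members, whose counts are small and were not tested. The cAMP response element TGACGTCA, which reads the same on both strands, occurred in 1 of the 20 measured members, Mcam, and 0 of the 16 others, beside 3.73% and 2.31% of all named genes.

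**Figure D2:**
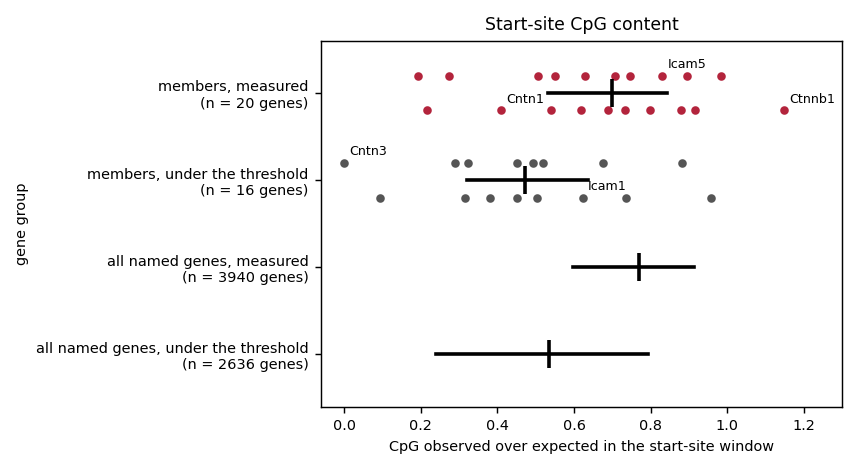
Ratio of observed to expected CpG dinucleotides in the 300-base start-site window, with each dot a member gene. Ticks are medians and bars the quartiles of each group. The medians were 0.70 and 0.47 for members measured and under the threshold, and 0.77 and 0.54 for all named genes.

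The windows of 5 members are shown to make this range visible, a catenin and 2 pairs from the same family of which one gene was measured and the other was not. They are the first listed window of each gene, written 5′ to 3′ on the gene's strand with CG dinucleotides in capitals. The windows shown for Ctnnb1 and Cntn1 hold no TATAAA on either strand, and the motif counted for these genes lies in another window. Ctnnb1 lies at chr9:120933150-120933449 (plus strand, 46 CG), Icam5 at chr9:21031788-21032087 (plus strand, 23 CG), Icam1 at chr9:21015690-21015989 (plus strand, 19 CG), Cntn1 at chr15:92050915-92051214 (plus strand, 9 CG) and Cntn3 at chr6:102464618-102464917 (minus strand, 0 CG).
Ctnnb1: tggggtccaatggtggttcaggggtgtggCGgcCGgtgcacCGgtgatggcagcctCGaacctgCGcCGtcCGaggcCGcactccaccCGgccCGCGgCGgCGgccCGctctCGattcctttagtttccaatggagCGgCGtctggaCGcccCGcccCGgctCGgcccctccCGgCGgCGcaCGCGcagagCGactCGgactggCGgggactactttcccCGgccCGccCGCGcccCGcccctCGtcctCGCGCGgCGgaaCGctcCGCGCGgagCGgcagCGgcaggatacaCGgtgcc
Icam5: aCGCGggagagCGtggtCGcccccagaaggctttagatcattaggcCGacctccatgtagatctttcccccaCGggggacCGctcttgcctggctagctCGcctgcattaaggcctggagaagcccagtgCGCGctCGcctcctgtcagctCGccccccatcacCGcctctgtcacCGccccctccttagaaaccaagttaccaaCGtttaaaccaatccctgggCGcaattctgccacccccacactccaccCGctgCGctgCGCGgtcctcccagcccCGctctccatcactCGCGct
Icam1: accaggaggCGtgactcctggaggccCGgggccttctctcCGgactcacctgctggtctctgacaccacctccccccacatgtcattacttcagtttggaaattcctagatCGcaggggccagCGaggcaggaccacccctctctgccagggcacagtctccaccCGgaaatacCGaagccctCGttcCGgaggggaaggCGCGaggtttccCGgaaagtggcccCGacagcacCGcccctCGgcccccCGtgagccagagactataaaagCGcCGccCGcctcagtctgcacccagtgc
Cntn1: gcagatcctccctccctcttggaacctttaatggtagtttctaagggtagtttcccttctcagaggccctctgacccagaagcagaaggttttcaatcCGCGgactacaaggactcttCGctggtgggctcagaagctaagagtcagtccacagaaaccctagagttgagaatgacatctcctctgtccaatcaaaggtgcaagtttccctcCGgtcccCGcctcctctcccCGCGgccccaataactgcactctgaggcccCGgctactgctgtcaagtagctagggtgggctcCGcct
Cntn3: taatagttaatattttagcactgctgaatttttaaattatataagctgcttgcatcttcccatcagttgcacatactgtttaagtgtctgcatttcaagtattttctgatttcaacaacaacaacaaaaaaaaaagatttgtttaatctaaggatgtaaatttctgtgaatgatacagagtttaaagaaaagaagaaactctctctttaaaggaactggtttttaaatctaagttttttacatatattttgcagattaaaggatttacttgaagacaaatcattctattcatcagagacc
Cntn1 was measured with 9 CG dinucleotides in its window and Icam1 was not with 19, so CpG content did not separate these members one by one.

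Of 13 cadherin genes 8 were measured. Cdh2, which encodes N-cadherin, the classical cadherin of neuronal junctions and synapses, gave 979, 791 and 881, a mean of 884 ± 93.7. All 3 arrays lay close together. The glycolipid-anchored cadherin gene Cdh13 gave 449, 357 and 474, with array 2 lowest. Among type II cadherins, a subfamily with a different adhesive interface, Cdh11 gave 289.8, 275 and 367, Cdh10 196, 175 and 227 and Cdh8 255, 196 and 138. Cdh10 and Cdh8 each passed the threshold on 2 arrays, and Cdh10 lay just under it on array 2, at 174.6 against 174.8. Cdh4, the R-cadherin gene, gave 196, 258 and 338 with its probe set of highest mean, while its 2 other probe sets averaged 53.6 and 10.5.

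Signals were also obtained from cadherin genes best known outside neurons. Cdh3, the P-cadherin gene, gave 468, 409 and 326 in 1 probe set. A second averaged 133 and was under the threshold on every array. Cdh1, which encodes the epithelial E-cadherin, gave 195, 489 and 205. Array 2 stood apart from the others, which differed little, and the log2 range was 1.32, against 0.12 without array 2. Markers of choroid plexus and ependyma, epithelia that border the hippocampus, were also shifted on array 2, with a median of 0.75 on the log2 scale over 4 measured of 6 markers. All 4 were higher there than the mean of the other arrays, with Ttr at 1334, 4257 and 94.2. Their summed signal over the 6 was 3879, 7580.2 and 2360.1. Meningeal and fibroblast markers, 6 measured of 8, went both ways on array 2, with a median shift of -0.31 but 1.64 for Igfbp2 and 0.59 for Slc6a13. Their summed signals were 12920, 8749 and 8080.4. The part of these markers in the Cdh1 signal was not tested. Cdh5, the endothelial VE-cadherin gene, gave 16.1, 47.2 and 106, under the threshold on each array. The muscle cadherin gene Cdh15 gave 79.1, 46.5 and 125 and, in a second probe set, 15.1, 61.3 and 28.7. It, the kidney cadherin gene Cdh16, and Cdh6 and Cdh9 were likewise under the threshold, with means from 75.8 to 107.

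Protocadherins, a large group of cadherin-related proteins of the nervous system, were represented by 2 genes. Both were under the threshold on every array. Pcdh7 gave 23.5, 49.7 and 29.1 and 67.1, 11 and 4.60 in 2 probe sets, and Pcdh12, known from endothelium, gave 37.4, 49.7 and 48.5.

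Catenin genes were measured in 6 of 7 cases, all 6 on every array, with Ctnnbip1 and Ctnnal1 counted among the 7. Ctnnb1, the gene of beta-catenin, which binds the cadherin tail and also acts in Wnt signalling, gave 5638, 4462 and 6233, a mean of 5444 ± 901. Array 2 was lowest. Ctnnd2, the neural delta-catenin gene, gave 4828, 6088 and 5959, with array 1 lowest, from a probe set of reduced design. Ctnnd1, which encodes p120 catenin, a regulator of cadherin turnover, gave 1981, 1838 and 1911. Its SD of 0.06 on the log2 scale was the smallest among the 42 measured member probe sets. The alpha-catenins link beta-catenin to actin. Ctnna2, the neural form, gave 1356, 1383 and 1798 and Ctnna1, the epithelial form, gave 355, 379 and 419. In both, array 3 was highest and arrays 1 and 2 were close together. Ctnnbip1, whose product blocks the binding of beta-catenin to its transcription factors, gave 527, 605 and 454. Ctnnal1 gave 82.4, 52.1 and 119.8 and was under the threshold.

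Neuronal immunoglobulin adhesion genes were measured in part of each family. Ncam1, the neural cell adhesion molecule gene, gave 3667, 3619 and 3029, a mean of 3438 ± 355, and Ncam2 gave 68.8, 177 and 200.4, above the threshold on arrays 2 and 3. In the L1 family, Chl1 gave 2567, 1512 and 1297 and Nrcam 1355, 1260.2 and 873, whereas L1cam gave 108, 239.9 and 52.7 and passed on array 2 alone. The signal of Chl1 was highest on array 1, and its log2 range of 0.94 was 0.17 without array 1. Cntn1, the contactin 1 gene, whose product sits at axonal membranes and myelinated axon domains, gave 3796, 3269 and 2160.2, a mean of 3075 ± 835. Cntn3 and Cntn4 were under the threshold on every array, at 27.8 ± 15.0 and 26.4 ± 26.8. Cntnap1, which encodes the contactin partner Caspr at the paranodes of myelinated axons, gave 37.2, 160.3 and 302. Its 3 arrays spread widely around the threshold.

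All 4 measured genes of the NCAM, L1 and contactin families had their highest signal on array 1 and their lowest on array 3. Over all measured probe sets 29.3% had their highest signal on array 1 and 28.4% their lowest on array 3. These are separate shares, and the share with both was not computed. The log2 signal on array 3 minus the mean of the other arrays was -0.22 for Ncam1, -0.56 for Chl1, -0.53 for Nrcam and -0.66 for Cntn1. Of the other immunoglobulin genes known from neurons, Thy1 was highest on array 3 and Icam5 on array 2. Alcam, at 651, 573 and 261, had the same order as the 4 genes, with -1.18 on array 3. Cdh3, Cdh8 and Itga3 had this order too, each at its probe set of highest mean, so it was not particular to these families. The second measured probe set of Ncam1, at 557, 287 and 413, was also highest on array 1 but lowest on array 2. The ratio of 3' to 5' Actb signal was 3.50 on array 3, against 2.57 and 1.86 on arrays 1 and 2. The Gapdh ratio differed little between arrays 1 and 3, at 3.99 and 3.94. The part of RNA quality in these values was not tested. The 3 families were put together after their values were seen, and the order is given as a description. CA1 markers had a median log2 shift of -0.08 on array 3, over 5 genes. For partners of the L1 and NCAM families it was 0.24, over 16 measured genes.

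Thy1, which encodes a small glycolipid-anchored protein abundant on mature neurons, gave 15328, 14249 and 16368, a mean of 15315 ± 1059.7. Its log2 range was 0.25, and the 3 arrays were close together. Icam5, the gene of telencephalin, an immunoglobulin molecule of the dendrites of forebrain neurons, gave 1822, 3577 and 2118. Array 2 was high and the other arrays were close together, with a log2 range of 0.97, against 0.26 without array 2. As with Cdh1, array 2 is the array with the lowest Gapdh ratio of 3' to 5' signal, whose part was not tested.

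Integrin alpha genes were measured in 4 of 12 cases. Itgav, the gene of the alpha v subunit that pairs with several beta subunits, gave 1234, 1299 and 2030.4 with a probe set of the family type, which can match related transcripts. Array 3 was highest. Itga3 and Itga7 encode subunits of laminin receptors. Itga3 gave 319, 217 and 211 and 175, 209 and 232 in 2 probe sets that disagreed in their order over the arrays. Itga7 gave 365, 290.3 and 291 with the probe set of highest mean and 397, 99.4 and 159.8 with a second. Both were highest on array 1 and the second by far more, with log2 ranges of 0.34 and 2.00. Meningeal and fibroblast markers had a median shift of 0.46 on array 1. Of the 6 measured, Ptgds, Mgp, Col1a1 and Col1a2 were higher there, by 0.35 to 0.89, while Igfbp2 and Slc6a13 were at -0.42 and -0.99. The part of these markers in the Itga7 signal was not tested. Itgax, a leukocyte subunit gene, gave 184, 100.2 and 277, above the threshold on arrays 1 and 3.

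The other integrin alpha genes were under the threshold on every array. Itgam and Itgal, which encode leukocyte subunits, averaged 19.8 ± 10.4 and 85.2 ± 42.2. Microglia are known to carry the Itgam product, and microglial markers were measured for 8 of 9 genes, among them Csf1r at 1647 ± 397. Itga4 gave 63.4, 52.8 and 101, Itga8 63.7, 11.9 and 41.3 and Itgae 16.3, 45.8 and 49.3 with the probe set of highest mean, and their other probe sets averaged from 16.5 to 60.7. Itga2, Itga5 and Itga6 averaged from 19.2 to 72.1. A probe set under the threshold may still come from an expressed gene.

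Integrin beta genes were measured in 5 of 8 cases, and both counts include Itgb1bp1, which does not encode a subunit. Itgb1, the subunit shared by most matrix-binding integrins, gave 1128, 1104 and 1355 and 313, 439.7 and 326 in 2 probe sets of the family and reduced types. Itgb5, a partner of alpha v, gave 823, 926 and 610.2, with array 3 lowest, and 315, 261 and 288 in a second probe set, with array 2 lowest. Itgb4, the partner of alpha 6, gave 225, 288 and 301. Itgb7, a leukocyte subunit gene, gave 215, 317 and 276 in 1 probe set. Its second probe set gave 14.7, 17.9 and 61.7, under the threshold on every array. The known Itgb7 partners Itga4 and Itgae were under the threshold and the general leukocyte gene Ptprc gave 20.2 ± 14.2. Of 5 leukocyte and blood markers with a probe set only the haemoglobin gene Hba-a1 was measured. Itgb2, the shared subunit of leukocyte integrins, gave 30.7, 68.5 and 14.4, and Itgb3 gave 61.5, 14.2 and 23.2. Itgb1bp1, whose product ICAP-1 binds the tail of beta 1 and restrains its activation, gave 498, 278 and 397, 442, 252 and 447 and 293, 306 and 170.3 in 3 probe sets. The first 2 were lowest on array 2 and the third on array 3.

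Of the ICAM genes, Vcam1, Pecam1, Mcam and Alcam, 4 of 7 were measured, Icam5 among them. Vcam1, which encodes a ligand of alpha 4 integrins on activated endothelium, gave 326, 248 and 359.6 with one probe set, while 2 others averaged 110.2 and 32.7. Icam1 and Icam2, ligands of leukocyte integrins, averaged 27.9 ± 29.8 and 14.5 ± 1.85, under the threshold on every array. Pecam1, an endothelial junction gene, gave 221, 128 and 143 and passed on array 1 alone. Mcam, known from endothelium and pericytes, gave 206, 299 and 186, with array 2 highest. Alcam, found on neurons, endothelium and meninges, gave 651, 573 and 261. Array 3 was low and the others were close together, with a log2 range of 1.27, against 0.19 without array 3. Endothelial and pericyte markers were measured for 5 of 10 genes, with summed signals of 2221, 2458 and 2739. Their median shift on array 3 was -0.08, and the 5 went both ways there, with Cldn5 at 0.86 and Eng at 0.41 but Cd34 at -0.36 and Rgs5 at -0.63. The part of these markers in the Alcam signal was not tested.

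Adhesion genes varied between the arrays about as much as other genes. Spread was computed after rescaling each array to a common median and taking log2 with a floor at 47.5. The median SD over the 42 measured member probe sets was 0.29, beside 0.25 over all 6218 measured probe sets. The members lay at a lower level, with a median mean log2 signal of 8.55 beside 9.13, and spread was wider at low signals. The arrays spanned more than 2-fold for 5 of 42 members, or 11.9%, beside 12.1% of all measured probe sets. These 5 were probe sets of Itgav, Itga7, Itgax, Cdh1 and Alcam, and that of Itga7 passed the threshold on 1 array alone. In a variance test in limma against an intensity-dependent prior, 0 of 42 members passed at an adjusted p of 0.05, beside 0.0161% of all measured probe sets. At an unadjusted p under 0.05 there were 2, or 4.76%, beside 5.21%. They were one probe set of Itgav, with an adjusted p of 0.80 in limma, and that of Alcam, with 0.90.

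**Figure D3:**
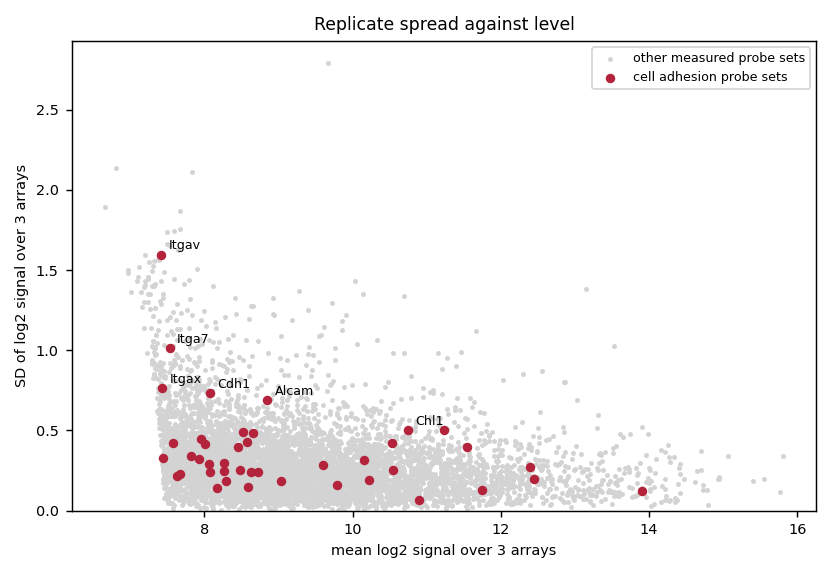
SD of log2 signal over the 3 arrays against mean log2 signal, for the 42 measured cell adhesion probe sets (red) and the other measured probe sets (grey). The 6 members of widest spread are named, led by a probe set of Itgav with an SD of 1.60 whose array 3 signal lies close to the floor.

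As a group, the adhesion genes differed little from array to array. The difference of each array from the mean of the remaining pair, on the log2 scale and as a median over the 32 measured genes, was 0.07, -0.08 and 0.09 for arrays 1, 2 and 3, beside 0.00, -0.06 and 0.06 over all measured genes. Of the 42 probe sets 15 were highest on array 1, 10 on array 2 and 17 on array 3, or 35.7%, 23.8% and 40.5%, beside 29.3%, 33.2% and 37.5% of all measured probe sets. Among 6 measured catenin genes 4 were highest on array 3, and among 8 cadherin genes 4 were. These counts are small and were not tested.

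**Figure D4:**
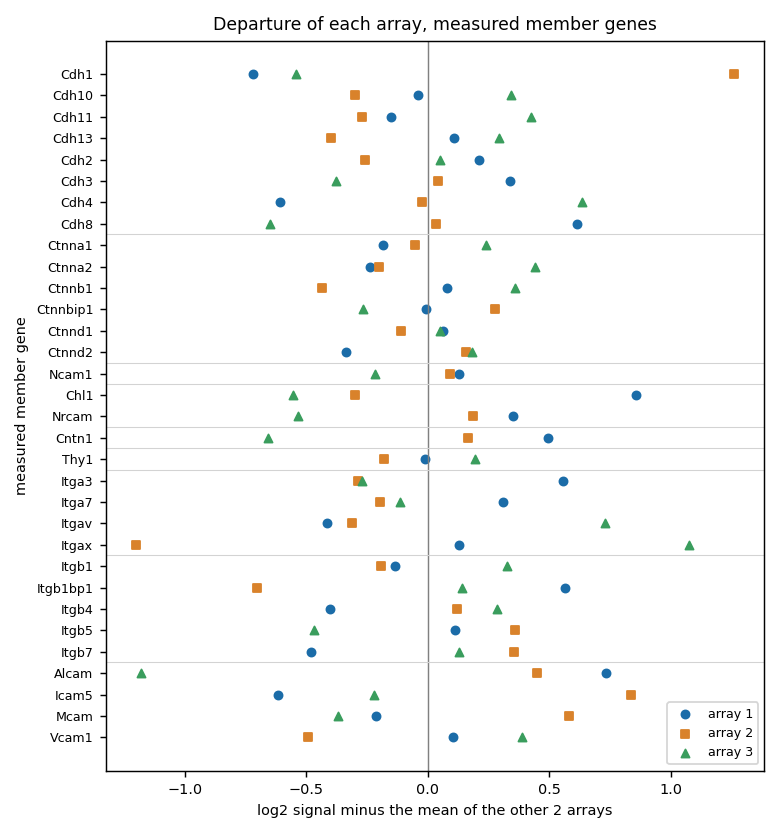
Difference in log2 signal between each array and the mean of the remaining pair (x axis), for the 32 measured member genes at their probe set of highest mean, with families separated by grey lines. Cdh1 departs by 1.26 on array 2 and Alcam by -1.18 on array 3, while the NCAM, L1 and contactin genes lie left of 0 on array 3.

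Probe sets of one member gene disagreed about as often as those of other genes. Of 59 genes 21 had several, and in 10 of these the probe sets fell on both sides of the threshold, beside 47.3% of the 2073 named genes with several. Ncam1 gave 3438 ± 355, 419 ± 135 and 29.7 ± 27.6. The second probe sets of Chl1 and Ctnna1 averaged 39.4 and 18.5, under the threshold on every array. Itgav gave 1521 ± 442, 233 ± 162 and 39.8 ± 32.1, and the second of these, at 316, 338 and 46.6, had a log2 range of 2.81, against 0.10 without array 3. The array 3 signal lies close to the floor of 47.5. With a floor at the 10th percentile the range was again 2.81, and at the 40th it was 1.61. Array 3 was lowest in this second probe set and highest in the first. Of the 9 genes with 2 or more measured probe sets 3 had the same highest array in each, Ctnna2, Itga7 and Ncam1, beside 34.4% of 675 named genes. For Itga7 the second probe set passed the threshold on array 1 alone, so this array had to be its highest. Both measured probe sets of Ctnna2 were highest on array 3, at 1356, 1383 and 1798 and 264, 376 and 439. Plain-suffix probe sets made up 67 of the 88. The other suffixes mark designs that can match related or alternative transcripts or use fewer probes, and 11 of those were measured.

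**Figure D5:**
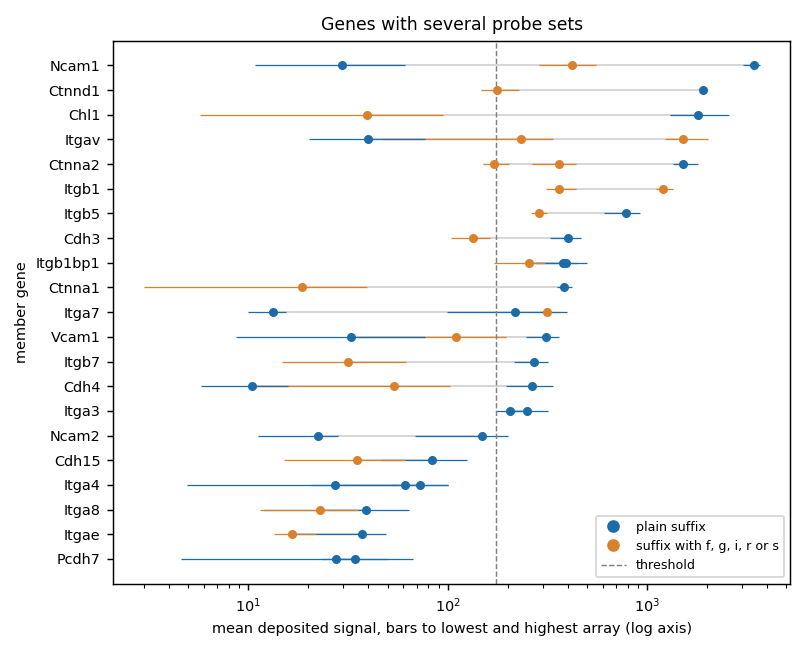
Mean deposited signal of each probe set (log axis) for the 21 member genes with several, with bars from the lowest to the highest array and colour by design suffix. The dashed line is the threshold of 175, and in 10 genes the probe sets lie on both sides of it.

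Genes whose products work with the adhesion molecules were listed in 6 groups, to be read beside the 59.1% of all named genes that were measured. Of 15 cadherin and catenin partners with a probe set 10 were measured, with Pkp4, a catenin relative, at 3679 ± 214 and the actin crosslinker gene Actn1 at 1761 ± 411. Of 16 integrin effectors 12 were measured, with the kinase gene Ptk2b at 4773 ± 149 and Cd47, an integrin-associated protein gene, at 4484 ± 925. Of 15 integrin ligands 8 were measured, with the collagen gene Col4a2 at 908 ± 156 and reelin (Reln) at 816 ± 138. All 9 partners of neurexins and neuroligins with a probe set were measured, with the adhesion gene Cadm1 at 9354 ± 1559 and the latrophilin gene Adgrl1 at 5863 ± 1318. Of 18 partners of the L1 and NCAM families 16 were measured, with the prion protein gene Prnp at 31676 ± 4141 and the spectrin gene Sptbn1 at 4236 ± 421. The polysialyltransferase genes St8sia4 and St8sia2, whose products modify NCAM, gave 409, 265 and 356, and 280.0, 335 and 361. Of 13 leukocyte and vascular partners 7 were measured, with basigin (Bsg) at 1769, 5365 and 1599, highest on array 2, and the selectin ligand gene Selplg at 1095 ± 159.

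With p-values adjusted over all measured probe sets, the limma variance test called 0 genes in each of these 6 lists. At an unadjusted p under 0.05 there were 2 among neurexin and neuroligin partners, Syt1 and Lin7b, and 1 among leukocyte and vascular partners, Bsg, beside 5.21% of all measured probe sets. All 3 were highest on array 2, as were 33.2% of all measured probe sets, and this is the array with the lowest 3' to 5' ratios, whose part was not tested. The median log2 shift of integrin ligands was 0.32 on array 1 and -0.42 on array 2, over 8 genes. The median shifts of meningeal and fibroblast markers were 0.46 and -0.31 on these arrays. Col1a1 was at 0.57 and -0.81, whereas Igfbp2 was at -0.42 and 1.64 and Slc6a13 at -0.99 and 0.59. The part of these markers in the integrin ligand values was not tested.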

How the data were processed

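The authors deposited a linear signal intensity for every probe set on 3 arrays of 1 group. Their program, its version, the background correction and the scaling are not stated in the labels, and the deposited intensity values had near-equal medians across arrays. All 3 columns belong to the samples, and no depth applies: the number of arrays limits precision. Gene symbols came from the platform annotation and were brought up to GRCm38.p6 by Entrez identifier. The 66 array controls and probe sets of several genes were left out of gene results. For spread, arrays were rescaled to a common median over measured probe sets (factors 0.991, 0.987 and 1.02), floored at 47.5, the 25th percentile of all values, and log2-transformed. The variance test used limma 3.58.1 in R 4.3.3 (fitFDistRobustly, winsorised at 0.05 and 0.1), with Benjamini-Hochberg adjustment over 6218 measured probe sets, and was tested on simulated data. The members and lists were chosen with earlier results of these data known. Per-array values are given for the 2 genes of highest mean per family, the 10 widest log2 ranges, the probe sets nearest the threshold and genes with several probe sets (at least the one of highest mean), and other members may be named. From partner lists the 2 genes of highest mean are named, and others named were chosen after their values were seen. Alternatives changed scaling, floor, threshold, probe set design, prior and arrays.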

Additional observations from a re-analysis of the deposited data

How the results depend on the processing

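The count of members past the limma variance test was 0 under all 13 alternatives tried. Over all probe sets the test called 0 to 6 with 3 arrays and 45 to 60 with 1 array left out. With so few calls, a count of 0 among the members says little about stability. At an unadjusted p under 0.05 there were 1 to 15 members, the 15 among 88 with no threshold. The share of all probe sets at this unadjusted p was not computed for the alternatives. The number of measured member probe sets was 62 at a threshold of the 25th percentile and 14 at the 75th, and 32 measured genes became 29 with the mean of a gene's probe sets in place of the highest. The count over 2-fold apart, 5 of 42, was 18 of 62 at the lower threshold, 1 of 14 at the higher and 18 of 88 with none, beside 25.2%, 6.59% and 19.7% of all probe sets. It was 2 to 4 when 1 array was left out (2 without array 3, 3 without array 2), beside 3.46% to 7.81%. The median log2 SD was 0.37 at the lower threshold, 0.23 at the higher and 0.23 to 0.30 with 1 array left out. Median shifts with 1 array left out ranged from -0.12 to 0.11 on array 1, from -0.20 to -0.11 on array 2 and from 0.12 to 0.20 on array 3. On array 1 the sign turned without array 2, and at the lower threshold and with none it was -0.01. The array 2 shift was -0.21 at the lower threshold. Of 108 log2 ranges of the 10 widest members under alternatives, 99 moved by less than the probe set's own SD between arrays. This SD comes from the same values as the range, so wide ranges had a wide tolerance. Some of these 99 still fell. The Itgav probe set whose array 3 signal lies close to the floor fell from 2.81 to 1.61 with the floor at the 40th percentile. One of Itga7 fell from 2.00 to 1.27 without array 2, and one of Ncam1 from 0.96 to 0.57 without array 1. The other 9 all came from leaving out 1 array. Where a probe set fell under the threshold no range was counted, as for Itga7 without array 1 and Itgax without array 3. Scalings moved the median of all genes by under 0.1 on the log2 scale. No paired analysis was possible because the samples form 1 group. Weak signals limit every value near or under the threshold.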

Other observations

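Clustered protocadherins, which neurons express in varied combinations, were read by 8 probe sets that match 9 or 14 protocadherin alpha genes each and so belong to no single gene. Of these 6 were measured. The probe sets 101650_at and 160610_at gave 2056, 2392 and 3345, and 2217, 1829 and 2694 on arrays 1, 2 and 3, and both were highest on array 3. The probe set 97756_s_at gave 765, 412 and 332, highest on array 1. Its log2 range of 1.16 had an adjusted p of 0.94 in the limma variance test. The remaining measured ones averaged between 234 and 786. Like 97756_s_at, they were all highest on array 1 and lowest on array 3. Of all measured probe sets 29.3% were highest on array 1 and 37.5% on array 3.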
